A study of Mus musculus with 3 samples.

Results

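The genes described here are 10 mouse genes of inflammatory cell death, Nlrp3, Pycard, Casp1, Casp4, Gsdmd, Il18, Myd88, Ripk1, Ripk3 and Mlkl, read by symbol among the 30415 genes of the series. They were measured by droplet single-cell RNA sequencing in hearts of NOD/SCID mice, an immunodeficient strain without functional T and B lymphocytes. Mice received antibody injections on day 0 and day 7, and hearts were harvested on day 14. The libraries are titled PD1/PEM, PDL1/ATZ and isotype, with PEM for pembrolizumab, which binds the receptor PD-1, ATZ for atezolizumab, which binds the ligand PD-L1, and isotype for the control antibody. Titles and treatment tags give opposite antibodies for the 2 treated libraries, so these are called by title and no value is assigned to an antibody. Each group was 1 library made from 3 pooled hearts. Groups could not be tested for want of replicates, and each interval given is an exact 95% interval for counting error only, which holds nothing of the variation between animals or preparations.

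An inflammasome is a cytosolic complex in which a sensor such as NLRP3 recruits the adaptor ASC, encoded by Pycard, to activate caspase-1. Caspase-1 and caspase-11, which mouse Casp4 encodes, cleave gasdermin D into a pore-forming fragment, and caspase-1 also matures interleukin-18. Necroptosis is a separate route, in which the kinases RIPK1 and RIPK3 lead to activation of the membrane-disrupting protein MLKL. MyD88 carries signals from Toll-like receptors and interleukin-1 family receptors, including the interleukin-18 receptor, and so stands upstream and downstream of the inflammasome. In the heart the NLRP3 inflammasome is best known from infarction and inflammation.

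On the assembly GRCm38 with the GENCODE M21 annotation, Casp1 lies at chr9:5298517-5307265 and Casp4 at chr9:5308828-5336783, both on the plus strand with 1562 bases between them. Il18 (chr9:50554827-50581840, plus) and Myd88 (chr9:119335934-119341411, minus) are on the same chromosome. Nlrp3 lies at chr11:59541568-59566956 (plus), Pycard at chr7:127989708-127993867 (minus) and Gsdmd at chr15:75862327-75867408 (plus). The necroptosis genes are Ripk1 at chr13:34002363-34037147 (plus), Ripk3 at chr14:55784995-55788865 (minus) and Mlkl at chr8:111311797-111338177 (minus). Myd88 lies within the annotated span of Slc22a14 on the same strand and overlaps Acaa1a on the other, and Ripk1 overlaps the pseudogene Gm17084 on the same strand and Serpinb6a on the other. How reads in shared stretches were assigned is not given in the sources used here, so the levels of Myd88 and Ripk1 are uncertain to that extent.

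RefSeq sequence of the 250 bases before an annotated start (GRCm38.p6) was at hand for 9 of the 10 genes, in 12 windows, and is shown for 5 of them. Casp1, Il18 and Mlkl are shown because they were among the genes higher in the PDL1/ATZ library, and Casp4 and Myd88 because their windows hold a match to a motif of inflammatory transcription. Capitals mark matches on either strand to an NF-kB form in Casp4 (GGG and TTTCC with 2 free bases between them) or to overlapping interferon motifs in Myd88. These are the core of the interferon-stimulated response element (GAAA and GAAA with 2 free bases between them) and the gamma-activated site (TTC and GAA with 3 free bases between them).
Casp1, chr9:5298267-5298516, plus strand: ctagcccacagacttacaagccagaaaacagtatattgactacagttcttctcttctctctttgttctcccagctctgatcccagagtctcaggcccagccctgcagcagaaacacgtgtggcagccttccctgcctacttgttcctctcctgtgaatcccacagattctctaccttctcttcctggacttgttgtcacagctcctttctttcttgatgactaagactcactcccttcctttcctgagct
Casp4, chr9:5308599-5308848, plus strand: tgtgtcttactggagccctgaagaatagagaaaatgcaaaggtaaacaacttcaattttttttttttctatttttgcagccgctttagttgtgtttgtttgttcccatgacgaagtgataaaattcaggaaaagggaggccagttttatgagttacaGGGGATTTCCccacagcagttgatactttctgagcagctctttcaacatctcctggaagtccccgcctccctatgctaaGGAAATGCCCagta
Il18, chr9:50554450-50554699, plus strand: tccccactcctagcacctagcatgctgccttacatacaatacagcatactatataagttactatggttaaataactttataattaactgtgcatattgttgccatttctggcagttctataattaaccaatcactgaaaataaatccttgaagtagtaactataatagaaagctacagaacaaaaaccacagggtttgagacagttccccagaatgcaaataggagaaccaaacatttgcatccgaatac
Mlkl, chr8:111338206-111338455, minus strand: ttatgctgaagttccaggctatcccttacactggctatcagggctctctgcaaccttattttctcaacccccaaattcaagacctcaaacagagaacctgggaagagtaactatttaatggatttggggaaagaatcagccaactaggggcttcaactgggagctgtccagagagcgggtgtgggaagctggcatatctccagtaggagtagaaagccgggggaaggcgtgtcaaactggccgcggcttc
Myd88, chr9:119340019-119340268, minus strand: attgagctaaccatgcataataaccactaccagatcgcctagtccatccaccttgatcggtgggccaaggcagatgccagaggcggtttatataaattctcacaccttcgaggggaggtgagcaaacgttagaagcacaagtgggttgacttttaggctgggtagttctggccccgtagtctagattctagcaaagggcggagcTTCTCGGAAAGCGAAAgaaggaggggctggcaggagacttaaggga
The 3 motifs were chosen after the levels were known. Of all 32851 windows of this length, 1.41% hold the NF-kB form, 2.98% the interferon-stimulated core and 7.02% the gamma-activated site. Among the windows of these genes the NF-kB form was found in the 2 overlapping Casp4 windows, the interferon-stimulated core in Myd88, and the gamma-activated site in Myd88 and in 1 of the 2 Ripk1 windows. A match is a description of letters, not of binding, and the other windows only lack these letters. The Myd88 window lies inside the span that GENCODE gives this gene, as does the Ripk1 window with a match. The Casp4 window shown runs past the GENCODE start of Casp4 at 5308828, and the NF-kB match nearer its end lies inside the annotated gene.

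The libraries held 6388 PD1/PEM, 11599 PDL1/ATZ and 9510 isotype cells with 14766346, 15144668 and 16677883 UMIs (unique molecular identifiers, counted transcripts). The PDL1/ATZ library stood apart. Its median cell had 1010 UMIs and 8.05% mitochondrial UMIs, against 2014 UMIs and 26.9% in PD1/PEM and 1532 UMIs and 27.1% in isotype. It shared no cell barcode with the others, while PD1/PEM and isotype shared 23. Of symbols with at least 500 UMIs in one library and 0 in the other, 99 were read in PDL1/ATZ and 62 in isotype, while PD1/PEM and isotype had 0 such symbols in either direction. Heart muscle transcripts took 2.79% of PD1/PEM, 1.53% of PDL1/ATZ and 3.83% of isotype UMIs. Summed macrophage markers stood at a CPM (UMIs of a gene scaled to a library of 1000000 UMIs) of 627 in PD1/PEM, 779 in PDL1/ATZ and 497.0 in isotype, while neutrophil markers had 313, 223 and 189 UMIs and lymphocyte markers 191, 235 and 149 in all. These differences move with the groups, and their part in the results below was not tested.

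All 10 genes were detected in all libraries with at least 32 UMIs each, so none fell under the minimum of 10 UMIs for a ratio. Together they gave 2911 UMIs in PD1/PEM (197 CPM), 3502 in PDL1/ATZ (231 CPM) and 2803 in isotype (168 CPM). The order depends on the total used, which here includes mitochondrial UMIs. Nuclear-encoded UMIs were 10935427 in PD1/PEM, 13972231 in PDL1/ATZ and 12341843 in isotype, and relative to these the sum was highest in PD1/PEM. In such sums, more cells of a type and more RNA per cell cannot be told apart. At least 1 UMI of any of them was found in 34.7% of PD1/PEM cells (33.5 to 35.8), 24.4% of PDL1/ATZ cells (23.6 to 25.2) and 24.4% of isotype cells (23.5 to 25.3). The PD1/PEM cells were the deepest. With every cell thinned to 700 UMIs, and 133, 413 and 483 cells below that depth set aside, the shares were 12.8% in PD1/PEM (12.0 to 13.7), 14.3% in PDL1/ATZ (13.7 to 15.0) and 11.5% in isotype (10.8 to 12.1). Thinning counted mitochondrial UMIs too, so it left the depth in nuclear-encoded UMIs unequal between libraries.

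**Figure D1:**
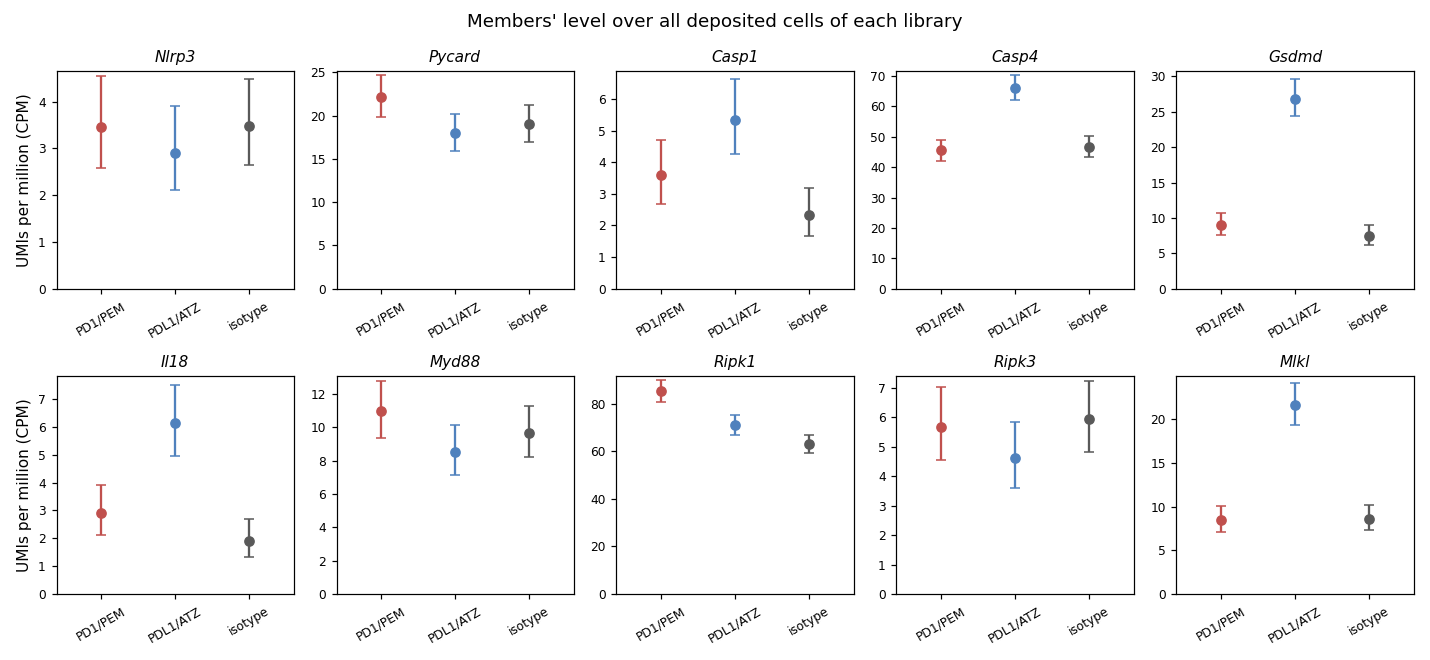
CPM of each gene over all deposited cells of the PD1/PEM, PDL1/ATZ and isotype libraries, 1 pooled library each; points are CPM and bars exact 95% Poisson intervals, and each panel has its own axis from 0. Gsdmd, Mlkl, Il18 and Casp4 stand highest in PDL1/ATZ with intervals clear of both other libraries, and Ripk1 stands highest in PD1/PEM.

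Nlrp3, the sensor, had 51 UMIs in PD1/PEM (3.45 CPM, 2.57 to 4.54), 44 in PDL1/ATZ (2.91 CPM, 2.11 to 3.90) and 58 in isotype (3.48 CPM, 2.64 to 4.50). Its intervals overlapped in all libraries. Pycard, the adaptor, had 328 UMIs in PD1/PEM (22.2 CPM, 19.9 to 24.8), 272 in PDL1/ATZ (18.0 CPM, 15.9 to 20.2) and 317 in isotype (19.0 CPM, 17.0 to 21.2), again with overlapping intervals. Casp1, the caspase they activate, had 53 UMIs in PD1/PEM (3.59 CPM, 2.69 to 4.70), 81 in PDL1/ATZ (5.35 CPM, 4.25 to 6.65) and 39 in isotype (2.34 CPM, 1.66 to 3.20). Only the PDL1/ATZ and isotype intervals of Casp1 were separate. No cell in any library held UMIs of Nlrp3, Pycard and Casp1 together, and at least 2 of the 3 were found in 12 PD1/PEM, 3 PDL1/ATZ and 5 isotype cells. At this depth absence from a cell is not informative.

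Casp4, whose product caspase-11 senses bacterial lipopolysaccharide in the cytosol, had 672 UMIs in PD1/PEM (45.5 CPM, 42.1 to 49.1), 1001 in PDL1/ATZ (66.1 CPM, 62.1 to 70.3) and 779 in isotype (46.7 CPM, 43.5 to 50.1). Gsdmd, the pore-forming substrate, had 133 UMIs in PD1/PEM (9.01 CPM, 7.54 to 10.7), 407 in PDL1/ATZ (26.9 CPM, 24.3 to 29.6) and 125 in isotype (7.50 CPM, 6.24 to 8.93). For both genes PDL1/ATZ was high and the other libraries overlapped. Il18, the cytokine, had 43 UMIs in PD1/PEM (2.91 CPM, 2.11 to 3.92), 93 in PDL1/ATZ (6.14 CPM, 4.96 to 7.52) and 32 in isotype (1.92 CPM, 1.31 to 2.71), with PDL1/ATZ clear of both others. Myd88, the receptor adaptor, had 162 UMIs in PD1/PEM (11.0 CPM, 9.35 to 12.8), 129 in PDL1/ATZ (8.52 CPM, 7.11 to 10.1) and 161 in isotype (9.65 CPM, 8.22 to 11.3). Its intervals overlapped throughout.

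Of the necroptosis genes, Ripk1, which also acts in survival signalling at the TNF receptor, had 1260 UMIs in PD1/PEM (85.3 CPM, 80.7 to 90.2), 1077 in PDL1/ATZ (71.1 CPM, 66.9 to 75.5) and 1049 in isotype (62.9 CPM, 59.2 to 66.8). PD1/PEM was high, and the PDL1/ATZ and isotype intervals were narrowly separate. Ripk3, the kinase that phosphorylates MLKL, had 84 UMIs in PD1/PEM (5.69 CPM, 4.54 to 7.04), 70 in PDL1/ATZ (4.62 CPM, 3.60 to 5.84) and 99 in isotype (5.94 CPM, 4.82 to 7.23), all overlapping. Mlkl, the executioner, had 125 UMIs in PD1/PEM (8.47 CPM, 7.05 to 10.1), 328 in PDL1/ATZ (21.7 CPM, 19.4 to 24.1) and 144 in isotype (8.63 CPM, 7.28 to 10.2). PDL1/ATZ was high and the other libraries overlapped. Ripk1, Ripk3 and Mlkl were all read in 0 PD1/PEM, 0 PDL1/ATZ and 1 isotype cell, and at least 2 of them in 39, 49 and 29 cells.

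The first comparison asks whether the genes differ between the PD1/PEM and isotype libraries. A gene was called apart when its ratio of CPM was at least 1.5-fold and the interval excluded 1. None of the 10 genes met this, against 4.61% of the 17218 genes measured that were higher and 3.38% that were lower. Ripk1 alone had an interval that excluded 1, with a ratio of 1.36 (1.25 to 1.47), below the 1.5-fold limit. Casp1 had a ratio of 1.53 (0.996 to 2.38) and Il18 1.52 (0.938 to 2.48), and neither interval excluded 1. The direction of Casp1 turned in the cells with at most 25% mitochondrial UMIs, where it had 10 UMIs in PD1/PEM (2.11 CPM) and 17 in isotype (3.32 CPM), a log2 ratio of -0.65. Ratios of Gsdmd (1.20), Pycard (1.17), Myd88 (1.14), Nlrp3 (0.993), Mlkl (0.980), Casp4 (0.974) and Ripk3 (0.958) all had intervals that held 1. The median log2 ratio of the 10 genes was 0.20, beside 0.01 over all genes measured.

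In the PDL1/ATZ library 4 of the 10 genes were higher than in isotype and 0 lower. This is not a result about these genes, since 45.4% of the 17409 genes measured were higher by the same rule and 4.72% lower. The ratio was 3.59 for Gsdmd (2.93 to 4.42), 3.20 for Il18 (2.12 to 4.94), 2.51 for Mlkl (2.06 to 3.07) and 2.29 for Casp1 (1.54 to 3.44). The median gene of the whole table had a log2 ratio of 0.58, a ratio of 1.49, and the median of the 10 genes was 0.34 on the log2 scale. Divided by the ratio of the median gene, Gsdmd stood at 2.40 (1.96 to 2.96), Il18 at 2.15 (1.42 to 3.31), Mlkl at 1.68 (1.38 to 2.06) and Casp1 at 1.53 (1.03 to 2.31). Their percentiles among all genes measured were 96.8, 95.2, 88.6 and 83.95. Above the median gene thus stood 4 of the 10 genes, beside 8704 of all 17409. The share of all genes with an interval clear of the median gene was not taken, so this split is not a result about these genes.

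The other 6 genes were not above the median gene. Casp4, with a ratio of 1.42 (1.29 to 1.56), stood at 0.948 of the median gene (0.863 to 1.04). Ripk1 had a ratio of 1.13 (1.04 to 1.23) and stood at 0.758 of the median gene (0.695 to 0.826). Below the median gene also stood Pycard at 0.633 (0.537 to 0.747), Myd88 at 0.591 (0.465 to 0.750), Nlrp3 at 0.560 (0.370 to 0.843) and Ripk3 at 0.522 (0.379 to 0.716). Scaled by a size factor taken from the median of gene ratios, Gsdmd, Il18, Mlkl and Casp1 remained higher and Pycard, Myd88, Nlrp3 and Ripk3 were lower, which made 8 genes apart. On that scale the log2 ratio of Casp4 was -0.0024 and that of Ripk1 -0.33, against 0.50 and 0.18 with all UMIs. With nuclear-encoded UMIs as the total the same 4 genes were higher, Ripk3 was lower (log2 ratio -0.68), and Ripk1 was again below 0 at -0.14. No share of all genes apart is given on either scale, so these counts are not a result about these genes. In cells with at most 25% mitochondrial UMIs Casp1 was no longer apart (log2 ratio 0.69), while Casp4 was (0.81). This filter kept 11590 of 11599 PDL1/ATZ but only 2602 of 9510 isotype cells. It left Casp1 with 17 UMIs in isotype, where its ratio stayed above 1.5-fold but the interval held 1. Both comparisons share the isotype library.

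**Figure D2:**
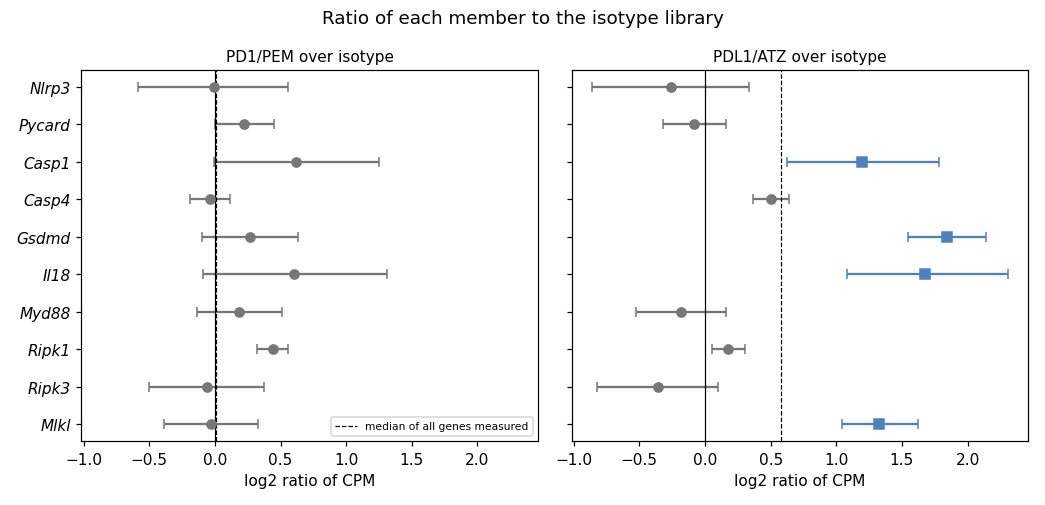
Log2 ratio of CPM of each gene, PD1/PEM over isotype on the left and PDL1/ATZ over isotype on the right, with exact 95% conditional binomial intervals; the solid line is no difference, the dashed line the median of all genes measured, and coloured squares are genes apart by the 1.5-fold rule. In PDL1/ATZ, Gsdmd, Il18, Mlkl and Casp1 lie right of the dashed line at 0.58 and Nlrp3, Pycard, Myd88, Ripk1 and Ripk3 left of it.

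Other genes of these pathways were read from 6 lists of 74 genes, of which 69 were measured in each comparison. Of these, 8 were higher and 1 lower in PD1/PEM than in isotype, beside 4.61% of all genes higher and 3.38% lower. Tnf, the cytokine that engages RIPK1 through its receptor, had 142 UMIs in PD1/PEM and 74 in isotype, a ratio of 2.17 (1.63 to 2.91). Tlr2, a Toll-like receptor that signals through MyD88, had 98 and 61 UMIs in PD1/PEM and isotype, a ratio of 1.82 (1.31 to 2.54). Irak2, a kinase of the MyD88 complex, had 1189 UMIs in PD1/PEM and 812 in isotype, a ratio of 1.65 (1.51 to 1.81). Tnfrsf1b, a TNF receptor, had a ratio of 1.58 (1.28 to 1.95). Il18r1, a chain of the interleukin-18 receptor, was lower, with 69 UMIs in PD1/PEM and 118 in isotype, a ratio of 0.660 (0.483 to 0.896).

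In PDL1/ATZ 30 of the 69 were higher than in isotype and 0 lower, beside 45.4% of all genes higher and 4.72% lower, and their median log2 ratio of 0.55 was next to the 0.58 of all genes. P2rx7, the ATP-gated channel that triggers NLRP3, had 663 UMIs in PDL1/ATZ and 221 in isotype, a ratio of 3.30 (2.83 to 3.87). Nlrc4, a sensor that works with NAIP proteins, had a ratio of 3.28 (2.26 to 4.84), and Tbk1, a kinase that restrains RIPK1, one of 2.49 (2.24 to 2.78). The inflammasome sensors had 6 of 9 measured genes higher, again beside 45.4% of all genes, and a median log2 ratio of 1.36, beside 0.58 over all genes, while the sensor Nlrp3 itself was at -0.26.

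**Figure D3:**
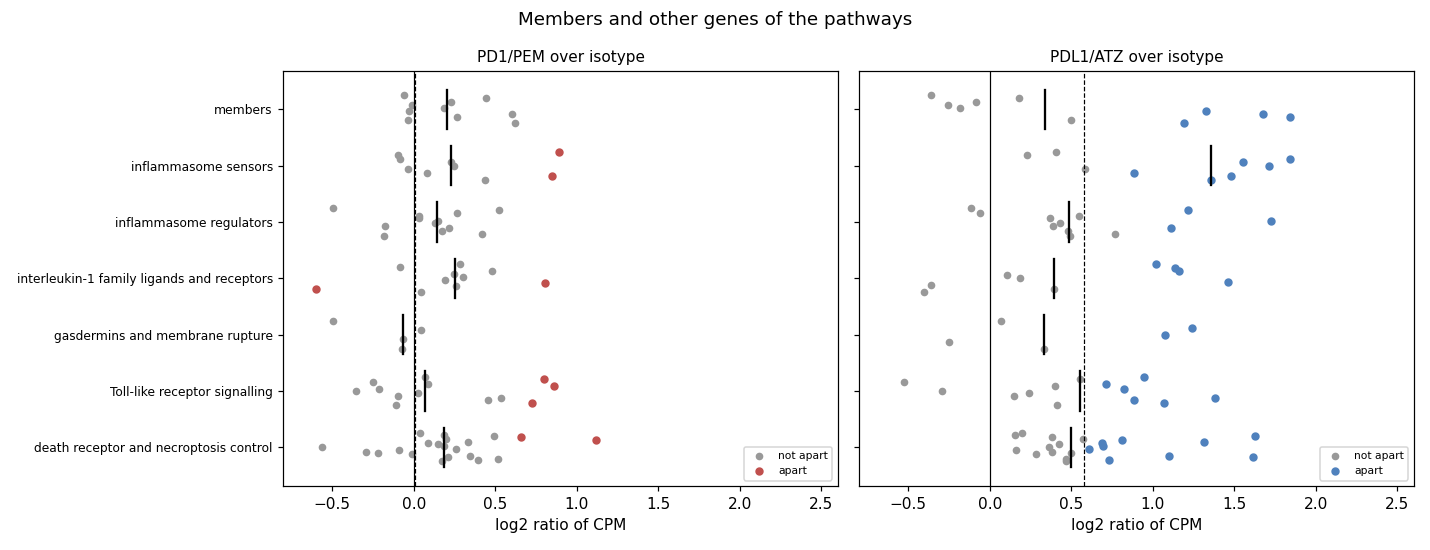
Log2 ratio of CPM for the 10 genes and for the measured genes of 6 pathway lists, PD1/PEM over isotype on the left and PDL1/ATZ over isotype on the right; each point is a gene, coloured where apart, short bars are list medians and the dashed line is the median of all genes measured. The inflammasome sensors have the highest median in PDL1/ATZ, 1.36, and the 10 genes a median of 0.34.

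Which cells held these UMIs was asked with lists of marker genes. A cell was put in a class when it had UMIs of at least 3 different markers of that class and of fewer than 3 of every other. By this rule 4395 PD1/PEM, 4228 PDL1/ATZ and 4305 isotype cells fell in a mixed group with markers of several classes. The endothelial and fibroblast classes were not borne out, since 0 of their 10 check markers each were 2-fold higher in any library. The mural class had 0 of 1 measured check markers 2-fold higher in PD1/PEM, 3 of 8 in PDL1/ATZ and 0 of 7 in isotype, so the class names stand only for the markers counted. Only 12 PD1/PEM, 56 PDL1/ATZ and 25 isotype cells were in the macrophage class, with 4, 9 and 8 UMIs of the 10 genes in all, so no ratio is given for any of them. Exactly 2 macrophage markers were found in 1227, 1493 and 1171 cells and exactly 3 in 492, 426 and 345, whatever their other markers. Doublets were not removed.

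Between the marker groups with the lowest and highest CPM, Casp4 differed by 1.52-fold in PD1/PEM, 1.47-fold in PDL1/ATZ and 1.49-fold in isotype, and Ripk1 by 1.38-fold, 1.49-fold and 1.51-fold. Gsdmd in PD1/PEM had 22.6 CPM in the fibroblast class (12 UMIs, 11.7 to 39.4). In the endothelial class it had 7.14 CPM (13 UMIs, 3.80 to 12.2), 3.16-fold less but with overlapping intervals. In the same classes of isotype it had 8.49 CPM and 4.26 CPM. Groups with fewer than 10 UMIs of a gene were left out of these ranges, so a small group may enter only because its level is high. Whether Gsdmd differs more between groups than Casp4 or Ripk1 was therefore not tested. Pycard in PDL1/ATZ had 50.3 CPM in the mural class (10 UMIs, just at the minimum) and 16.2 CPM in the endothelial class (85 UMIs). Its range was 1.22-fold in PD1/PEM and 1.19-fold in isotype. Casp4 ranged from 34.7 CPM (cells below the marker minimum) to 52.7 CPM (fibroblast class) in PD1/PEM, from 61.5 CPM (endothelial) to 90.5 CPM (mural) in PDL1/ATZ and from 41.8 CPM (below the minimum) to 62.1 CPM (mural) in isotype, among groups with at least 10 of its UMIs. Ripk1 ranged from 75.3 to 104 CPM in PD1/PEM, from 50.3 to 74.7 CPM in PDL1/ATZ and from 43.8 to 66.1 CPM in isotype. Gsdmd had a higher CPM in PDL1/ATZ than in isotype, with separate intervals, in each of the 4 groups with at least 10 of its UMIs in both libraries. It was 28.2 CPM in PDL1/ATZ (23.8 to 33.1) against 4.26 CPM in isotype (2.33 to 7.14) in the endothelial class, and 25.4 CPM in PDL1/ATZ (18.4 to 34.1) against 6.47 CPM in isotype (3.44 to 11.1) in cells below the minimum. Mlkl in the mixed group was 23.6 CPM in PDL1/ATZ (20.2 to 27.4) against 7.56 CPM in isotype (5.93 to 9.51). That isotype value was the lowest among groups with at least 10 of its UMIs. The contrast was smaller in the endothelial class, 19.2 CPM in PDL1/ATZ against 11.25 CPM in isotype. In cells below the minimum Mlkl had 19.6 CPM in PDL1/ATZ against 9.95 CPM in isotype. Over all cells the median gene had a ratio of 1.49 between these libraries.

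**Figure D4:**
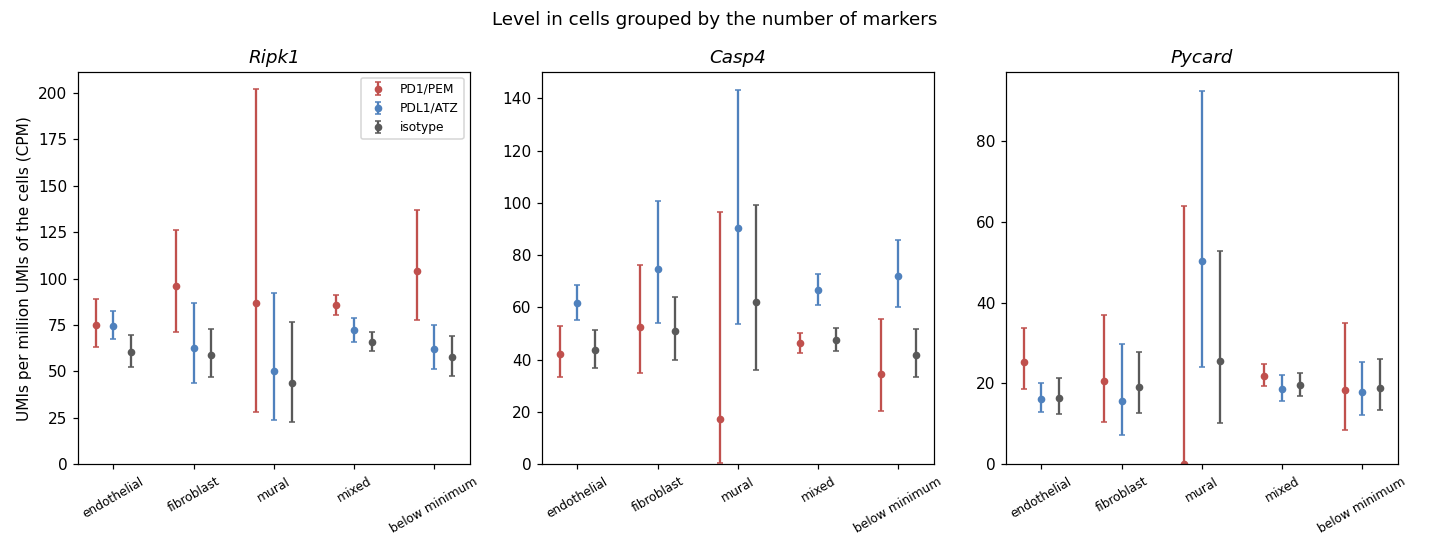
CPM of Ripk1, Casp4 and Pycard within cells grouped by the number of different markers, in PD1/PEM, PDL1/ATZ and isotype; points are CPM of the UMIs of those cells, bars exact 95% Poisson intervals. The endothelial and mixed groups overlap within each library, and the mural groups, of 41 PD1/PEM, 200 PDL1/ATZ and 200 isotype cells, have wide intervals.

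A second rule was added after the data were seen, because many cells held markers of several classes. No macrophage marker was found in 2061 PD1/PEM, 5460 PDL1/ATZ and 4594 isotype cells. A macrophage marker-rich cell had at least 3 different macrophage markers, at least 5 marker UMIs and at least 3 times the marker UMIs expected from its depth. It was kept from 6 settings that were compared with UMI counts of the 10 genes in view, so what it shows of them is a description. It gave 154 PD1/PEM, 193 PDL1/ATZ and 111 isotype cells, in which all measured macrophage check markers, 10, 9 and 8, were at least 2-fold higher than in cells rich in no class's markers. These cells were deep, with median UMIs of 2907, 2115 and 2650, and heart muscle transcripts took 2.22%, 1.04% and 3.08% of their UMIs. Near the limit, 60, 37 and 23 cells had 3 to 4 times the expected marker UMIs and 89, 45 and 17 had 2 to 3 times. They held 3.14% of all UMIs and 4.26% of the UMIs of the 10 genes in PD1/PEM (3.56 to 5.06), 2.87% and 3.97% in PDL1/ATZ (3.35 to 4.67), and 1.82% and 2.43% in isotype (1.89 to 3.07). Nearly all UMIs of these genes lay outside them.

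None of the genes measured there, 3 in PD1/PEM, 4 in PDL1/ATZ and 2 in isotype, was at least 2-fold higher with an interval that excluded 1, against 3.98%, 6.42% and 4.44% of all genes measured. In PD1/PEM the ratio was 1.72 for Pycard (0.987 to 2.80) and 1.28 for Ripk1 (0.944 to 1.70). In PDL1/ATZ it was 1.39 for Gsdmd (0.786 to 2.29), 1.29 for Pycard (0.610 to 2.41) and 1.03 for Ripk1 (0.701 to 1.46), and in isotype 1.49 for Ripk1 (0.983 to 2.16). Casp4 had an interval that excluded 1 in PD1/PEM and PDL1/ATZ, in PD1/PEM not at every setting of the rule. It had 71.3 CPM in marker-rich cells against 44.7 CPM in cells rich in no class's markers in PD1/PEM, a ratio of 1.59 (1.09 to 2.26). In PDL1/ATZ it had 117 CPM against 64.4 CPM, a ratio of 1.82 (1.35 to 2.42). In isotype it had 59.5 CPM against 46.3 CPM, a ratio of 1.28 (0.757 to 2.04).

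Nlrp3 gave the highest share of any of the 10 genes in these cells, in PDL1/ATZ: 9 of its 44 UMIs, 20.5% (9.80 to 35.3), against 3 of 51 in PD1/PEM and 2 of 58 in isotype. The 9 UMIs came from 5 cells, so they are not independent and the interval is too narrow. Under the 6 settings the PDL1/ATZ count was 9 UMIs from 5 cells in 3 of them and 4 UMIs from 1 cell in the other 3, where the share was 9.09%. With fewer than 10 UMIs no ratio is given.

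**Figure D5:**
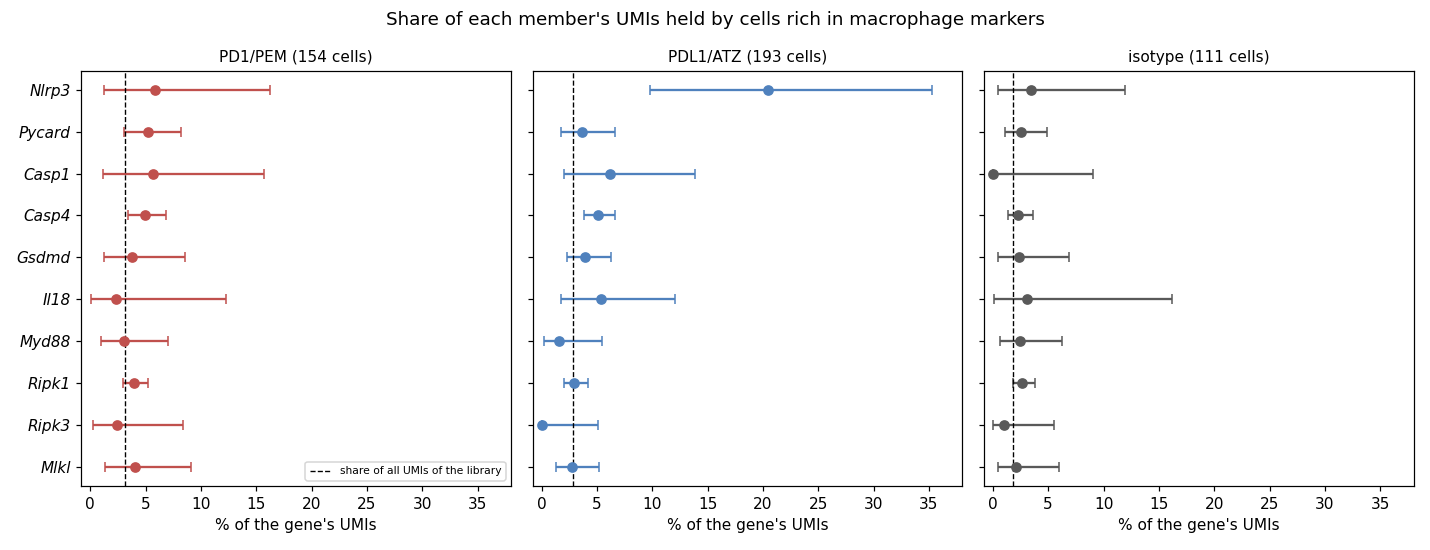
Share of each gene's UMIs held by cells rich in macrophage markers, in PD1/PEM, PDL1/ATZ and isotype, with exact 95% binomial intervals; the dashed line is the share of all UMIs of the library in those cells, 3.14%, 2.87% and 1.82%. Nlrp3 in PDL1/ATZ, at 20.5%, rests on 9 UMIs from 5 cells.

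Of the measured genes of the pathway lists, 3 of 32 in PD1/PEM, 7 of 40 in PDL1/ATZ and 2 of 19 in isotype were higher in the same cells, beside the 3.98%, 6.42% and 4.44% of all genes. Too few of the 10 genes were measured there to set them against these lists. In PDL1/ATZ these included Tlr7, an endosomal receptor that signals through MyD88 (ratio 9.82, 5.54 to 16.6), Nlrc4 (5.80, 3.24 to 9.78), Tnf (4.49, 2.37 to 7.88) and P2rx7 (3.05, 2.27 to 4.03). P2rx7 was also higher in marker-rich cells of PD1/PEM (2.08, 1.11 to 3.56) and isotype (2.61, 1.24 to 4.91). Ninj1, which ruptures the plasma membrane downstream of gasdermin D, had a ratio of 2.56 in PD1/PEM (1.46 to 4.20), 2.51 in PDL1/ATZ (1.58 to 3.80) and 2.47 in isotype (1.40 to 4.07).

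By correlation of log2(CPM + 10) over 17 groups of library and marker class, the gene most like Casp1 among 12492 candidates was Dok3 (Pearson r = 0.92), most like Gsdmd was Wwp1 (0.95), most like Il18 was Gm48765 (0.97) and most like Mlkl was Rab2b (0.97). Casp4 was most like Cdh12 (0.94), Ripk1 most like Tbc1d9 (0.91), Pycard most like Lmnb1 (0.94), Myd88 most like Fpgs (0.94), Nlrp3 most like Tmem126b (0.90) and Ripk3 most like Mief2 (0.86). The groups share libraries, depth and the shift of the PDL1/ATZ library, and the values describe these groups only. Each gene named is the highest of 12492 over only 17 groups, and how high r would be by chance was not tested. Casp1, Il18, Nlrp3 and Ripk3 had 173, 168, 153 and 253 UMIs in all libraries together, so single UMIs in small groups weigh on their values.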

How the data were processed

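Digested hearts were run on the 10x Genomics 3′ v3.1 kit, per the labels' protocols. The submitters' processing notes name mm10 as build and Seurat and Cell Ranger as tools, without versions, annotation or cell filters. Counts deposited by the authors are whole UMIs per cell and gene. No cell in them had over 2499 genes or over 30% mitochondrial UMIs. Groups were taken from the sample titles.

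UMIs were summed over all deposited cells, or over the cells of a marker class, and divided by the UMI total of the same cells (CPM). No doublet caller was run. The 95% intervals are Poisson for sums, Clopper-Pearson for shares and conditional binomial for ratios, all exact. Ratios needed 10 UMIs in both libraries. PCR and capture are not modelled. Python 3.11.15, numpy 2.4.6, scipy 1.17.1 and pandas 2.3.3 were used. The ratio step was tested on simulated counts drawn from the isotype profile.

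The genes, pathway lists, markers and rules were chosen with earlier results of these data known. The rule for macrophage marker-rich cells was added after the data were seen: 6 settings, of 2 to 5 times the mean of the library and 5 or 8 marker UMIs, were looked at with both check markers and UMIs of the 10 genes in view, and the setting of 3 times and 5 UMIs was kept; at 2.5 times the check markers were raised as well, in 191 PD1/PEM, 212 PDL1/ATZ and 119 isotype cells. The 3 promoter motifs were chosen after the ratios were seen. Named pathway genes are the 4 furthest apart in each direction by the interval bound nearest no difference, and for macrophage marker-rich cells the 4 highest per library; the value of 1 of them is not reported here. Genes of likeness are those of highest Pearson r. Alternatives were scaling, filters on mitochondrial share and shared barcodes, minimum UMIs, fold and marker number. Likeness used genes with at least 200 UMIs and groups with at least 20000 UMIs.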

Additional observations from a re-analysis of the deposited data

How the results depend on the processing

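With 1 pooled library per group, no paired analysis was possible because there is no replicate, and leaving out a replicate could not be done. Depth limits every statement on single cells: most cells held 0 UMIs of a given gene, and 1 UMI is worth 0.0677 CPM in PD1/PEM, 0.0660 in PDL1/ATZ and 0.0600 in isotype.

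The count of genes apart in PD1/PEM was 0 and became 1 only among cells below the marker minimum, where 2 genes could be measured and Ripk1 had a log2 ratio of 0.85. In PDL1/ATZ the count of 4 became 8 and the median log2 ratio of the 10 genes became -0.16 with a size factor from the median of gene ratios, a scaling that removes the general shift. With nuclear-encoded UMIs as the total the count was 5 and the median 0.02. Neither count has a share of all genes beside it, so neither is a result about these genes. Over the single genes and settings, 48 of 52 values kept their call and stayed within the main interval in PD1/PEM, and 37 of 56 in PDL1/ATZ, where 11 moved, 7 passed the rule anew and 1 lost it. None that was apart changed direction.

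The share of UMIs of the 10 genes in cells of the macrophage class was 0.137% in PD1/PEM, 0.257% in PDL1/ATZ and 0.285% in isotype. The same cells held 0.1295%, 0.429% and 0.220% of all UMIs. With at least 2 markers the share of the 10 genes became 0 in PD1/PEM, beside 0.0385% of all UMIs. In isotype it became 0.107%, beside 0.146%. With at least 4 it was 0.571% in PDL1/ATZ, beside 0.564% of all UMIs, and 0.571% in isotype, beside 0.418%. In PD1/PEM the class went from 12 cells to 6 with at least 2 markers and 23 with at least 4. In cells thinned to 700 UMIs the share was 0.463% in PD1/PEM, 0.790% in PDL1/ATZ and 0.725% in isotype. These cells held 0.544%, 0.8225% and 0.388% of all UMIs. In isotype cells with at most 25% mitochondrial UMIs it was 0, beside 0.190%. The cause was not tested.

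Over the 6 settings for macrophage marker-rich cells, the share of these UMIs ran from 1.13% to 6.25% in PD1/PEM, from 2.37% to 4.77% in PDL1/ATZ and from 1.07% to 2.82% in isotype. No measured gene was apart at any of them, but only 1 to 4 of the 10 genes could be measured, so this says little about the 10. The Nlrp3 share ran from 0 to 7.84% in PD1/PEM, from 9.09% to 20.5% in PDL1/ATZ and from 0 to 3.45% in isotype. The Casp4 ratio in PDL1/ATZ ran from 1.71 to 1.96. In PD1/PEM its interval held 1 at 2 times the mean, with a ratio of 1.39 (0.995 to 1.89). It also did at 4 times, with 1.44 (0.847 to 2.29). At 5 times Casp4 had 7 UMIs in PD1/PEM, too few for a ratio.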
